A study of Mus musculus with 24 samples.

Results

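Mitotic genes were followed across 24 RNA-seq libraries from mouse bone marrow macrophages, as a set of 38 genes picked by symbol from the 54429 symbols of the deposited table. All 38 symbols were found, and all 38 were among the 12797 genes with enough counts to be tested. The mice were of the C57BL/6N strain and either wild type (MK2 WT, here WT) or knockout (MK2 KO, here KO) for MK2, a protein kinase downstream of p38 whose gene is Mapkapk2. Marrow cells of both genotypes were grown in 10 ng/ml murine M-CSF and replated on day 7. They were then left unstimulated (M0) or given 10 ng/ml murine IL-4 (M2), and all were harvested 24 h later. This gave 4 groups of 6 libraries: WT M0, WT M2, KO M0 and KO M2. The labels name M-CSF for the first culture and not for the medium after replating, and they give neither the age of the mice nor the number of animals. Nothing in them says that the 6 libraries of a group came from separate animals, and the tests therefore weigh only how far libraries differed from one another, part of which may be technical.

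Mitotic genes are transcribed late in the cell cycle, from the end of S phase into mitosis, and are nearly silent in resting cells. Many of their promoters carry a cell cycle homology region (CHR) and CCAAT boxes, where the DREAM complex represses them in resting cells and the MYB-MuvB complex with FOXM1 activates them in dividing ones. Macrophages grown from marrow divide in response to M-CSF. IL-4 is known to halt that division in culture, although it can drive resident macrophages to divide in the body.

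Total counts were 7893810 to 13492500 per library. The macrophage list (Csf1r, Adgre1, Cd68 and others, 10 genes, all tested) summed to between 11565 and 19736 CPM, and each of the 10 alternative activation genes (Arg1, Retnla, Mrc1 and others) rose with IL-4 in both genotypes. Mapkapk2, the targeted gene, was at 100 to 139 CPM in the 12 WT libraries and at 47.8 to 63.4 CPM in the 12 KO libraries, so the groups did not overlap and reads of the gene remained in KO. Stromal markers (collagens, Sparc, Acta2 and others) summed to 163 to 268 CPM in WT and to 12.5 to 40.5 CPM in KO, and 16 of 16 tested were lower in KO in M0 and in M2. Granulocyte progenitor markers summed to 6.44 to 12.6 CPM over all libraries.

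CPM here is the count rate of a gene in a library after TMM scaling, which compares libraries and not genes of different length. Per length, in GETMM (the authors' signal corrected for gene length and library), the highest means over the 24 libraries were those of Cdk1 at 55.1, Top2a at 54.0 and Kif23 at 51.4. Cdk1 is the kinase that starts mitosis, Top2a untangles sister chromosomes and Kif23 is a motor of the central spindle. In WT M0 these 3 genes stood at 59.8 ± 14.0, 61.3 ± 13.0 and 54.3 ± 9.31 GETMM (SD, n = 6), which differ by less than the spread between libraries. At the other end was Cdc25c, a phosphatase that activates Cdk1, at 2.68 ± 1.41 GETMM in WT M0 and 2.59 over all libraries. Its counts ran from 4 to 56 per library, and those of the other 37 genes from 26 to 4402.

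The first comparison was IL-4 against no IL-4 in each genotype. Mitotic genes fell with IL-4 in both. In WT, 32 of the 38 fell and 0 rose, where 7.95% of all genes tested fell and 8.49% rose, with adjusted p from edgeR's quasi-likelihood test at a threshold of 0.05. The median log2 fold change of the 38 was -0.84, from -1.05 for Kif15 to -0.50 for Cdc25c, and that of all genes tested was -0.02. In KO, 37 fell and 0 rose, where 11.4% of all genes fell and 12.2% rose, and the median was -1.03, from -1.28 for Cenpf to -0.72 for Cdca8. On the linear scale the median gene stood at 0.559 of its M0 level in WT M2 and at 0.489 in KO M2. In bulk RNA, fewer cells in mitosis and less mitotic RNA per cell cannot be told apart. Osteoclast markers moved with IL-4 too: 5 of the 7 tested of that list of 9 rose in each genotype, with medians of 0.61 in WT and 0.85 in KO. The list summed to 1343 to 2049 CPM in WT M0 and 2090 to 2738 in WT M2, and to 1025 to 1550 and 1908 to 2742 in KO. Atp6v0d2, a proton pump subunit, held most of its reads, while Calcr, the calcitonin receptor, had 0 reads in WT M0, KO M0 and KO M2 and 1 in WT M2. The endothelial list, of which 3 of 8 were tested, summed to 55.03 to 75.2 CPM in WT M0 and 128 to 185 in WT M2, and to 90.7 to 106 and 176 to 262 in KO, most of it Vwf. Their part in the result was not tested.

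The summed level of the 38 genes was 869 CPM at the lowest, 1391 at the median and 1461 at the highest in WT M0, and 458, 791 and 886 in WT M2. In KO M0 it was 1121, 1557 and 2359 CPM, and in KO M2 it was 631, 722 and 1135. In each genotype the highest M2 library passed the lowest M0 library by little, and the other libraries of the states were mostly apart. Gene by gene, the 6 M2 libraries lay wholly below the 6 M0 libraries for 14 of the 38 in WT, where 3.41% of all genes did so, and for 11 of the 38 in KO, where 5.82% did.

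**Figure D1:**
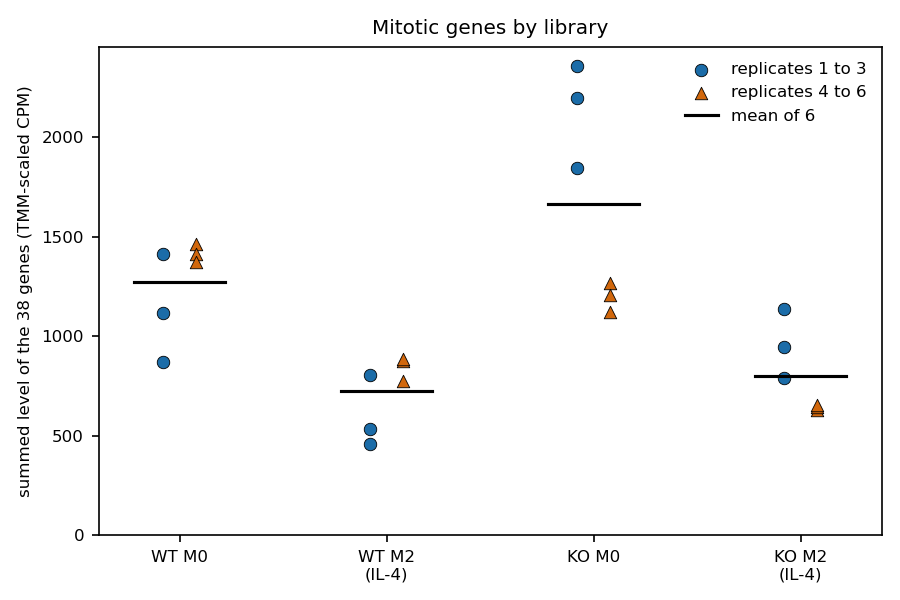
Summed level of the 38 mitotic genes in each library (vertical axis, TMM-scaled CPM from 0) by group, with circles for replicates 1 to 3, triangles for replicates 4 to 6 and a bar at the mean of 6 libraries. M2 libraries sit lower than M0 libraries in both genotypes, and KO M0 replicates 1 to 3 (1845 to 2359) stand above every other library.

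Among the genes of mitotic entry (9 genes: Cdk1 with its cyclins, activators and partners), 7 fell in WT and 8 in KO, with medians of -0.68 and -0.94. Ccna2, cyclin A (chromosome 3, 36564865 to 36572150, minus strand), measured 33.6 CPM at the lowest, 52.8 at the median and 57.9 at the highest in WT M0 and 11.8, 31.6 and 38.2 in WT M2. In KO it measured 45.8, 67.8 and 91.2 CPM in M0 and 20.9, 28.7 and 45.9 in M2. The states overlapped slightly in both genotypes, and Ccna2 fell by 0.82 ± 0.26 (SE, log2; adjusted p 0.034) in WT and by 1.17 ± 0.26 (adjusted p 0.0017) in KO. Tpx2, which activates Aurora A on spindle microtubules, went from a median of 50.4 CPM (29.8 to 57.7) to 31.1 (22.9 to 38.8) in WT and from 56.7 (39.2 to 82.4) to 31.5 (25.2 to 41.2) in KO. Its log2 fold changes were -0.65 ± 0.19 and -0.83 ± 0.19, and both passed the test. Ccnb2, a cyclin B, had separate states in both genotypes and the largest fall of this group in WT, -0.96 ± 0.22. Cdk1, Ccnb1, Plk1 and Foxm1, the factor that drives many of these genes, also fell in both genotypes.

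Aurka and Cdc25c, both of mitotic entry, did not pass in WT. Aurka, the Aurora A kinase of the spindle poles, was at a median of 11.3 CPM (8.53 to 15.1) in WT M0 and 8.54 (5.58 to 10.4) in WT M2, a log2 fold change of -0.54 ± 0.19 with an adjusted p of 0.057, and it fell in KO (-0.86 ± 0.19). Cdc25c was at 3.42 CPM (0.627 to 4.38) and 2.42 (0.446 to 3.25) in WT M0 and M2, and at 4.44 (2.29 to 5.57) and 1.76 (0.601 to 3.84) in KO. In this fit it was the only member that passed in neither genotype, with adjusted p of 0.48 in WT and 0.12 in KO and standard errors of 0.43 and 0.42, the widest of the 38. With replicates 4 to 6 alone it passed in KO (-1.24 ± 0.35, adjusted p 0.017).

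Mki67 encodes the proliferation antigen Ki-67, which coats mitotic chromosomes (chromosome 7, 135689784 to 135716361, minus strand). With Top2a and the condensin subunit Ncapg it makes up the chromosome structure genes, of which 2 fell in WT and all 3 in KO. Mki67 had 118 CPM at the lowest, 219 at the median and 282 at the highest in WT M0 and 76.0, 126 and 139 in WT M2. The KO values were 175, 247 and 440 CPM in M0 and 100, 117 and 184 in M2. The ranges overlapped in both genotypes, and Mki67 fell by 0.89 ± 0.24 in WT and by 1.08 ± 0.24 in KO on the log2 scale. Top2a went from a median of 169 CPM (110 to 178) to 96.5 (48.5 to 109) in WT and from 199 (141 to 278) to 80.9 (73.1 to 130) in KO, with no overlap of the states in either. It fell by 0.83 ± 0.23 and by 1.17 ± 0.23. For Ncapg the WT medians were 17.1 CPM (13.1 to 21.3) and 12.1 (5.02 to 14.8), and its fold change in WT, -0.55 ± 0.22, had an adjusted p of 0.09. In KO it fell by 0.99 ± 0.21, from 22 CPM (17.9 to 31.4) to 10.4 (8.85 to 18.9).

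Kinetochore and checkpoint genes link chromosomes to the spindle and delay anaphase until all are attached. Of these 8 genes, 7 fell in WT and 8 in KO, with medians of -0.87 and -1.06. Cenpe, a kinetochore motor (chromosome 3, 135212537 to 135273611, plus strand), was at 31.0 CPM at the lowest, 50.2 at the median and 58.7 at the highest in WT M0 and at 14.2, 27.7 and 31.1 in WT M2. In KO it was at 39.7, 55.2 and 88.0 CPM in M0 and 21.1, 25.3 and 40.4 in M2. The highest M2 library passed the lowest M0 library by little in both genotypes, and the falls were 0.93 ± 0.23 and 1.16 ± 0.23 on the log2 scale. Cenpf, a large kinetochore protein, had the largest log2 fold change of the 38 in KO, -1.28 ± 0.26, from a median of 33.3 CPM (23.6 to 56.5) to 14.4 (11.2 to 25.1). In WT it went from 28.0 CPM (16.6 to 34.4) to 16.3 (8.58 to 19.3), a fold change of -0.90 ± 0.26. Bub1, a checkpoint kinase, was the 1 gene of this group that did not pass in WT, at 24.7 CPM (13.3 to 25.7) in M0 and 14.2 (6.31 to 18) in M2, with an adjusted p of 0.051. Its partner Bub1b, and Ndc80, Nuf2 and Spc25 of the complex that holds microtubules, fell in both genotypes, as did the checkpoint kinase Ttk.

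The chromosomal passenger complex corrects faulty attachments and later helps to place the cleavage furrow. Of its 3 genes here, 1 fell in WT and 3 in KO. Birc5, survivin (chromosome 11, 117849251 to 117855743, plus strand), had separate states in both genotypes. It was at 15.1 CPM at the lowest, 20.9 at the median and 24.5 at the highest in WT M0 and at 6.80, 12.1 and 14.1 in WT M2. The KO libraries had 18.9, 23.7 and 30.7 CPM in M0 and 6.85, 10.8 and 15.1 in M2. Birc5 fell by 0.93 ± 0.20 and by 1.11 ± 0.20 on the log2 scale. Cdca8, borealin, moved from a median of 17.4 CPM (13.7 to 20.4) to 12.3 (7.81 to 14.4) in WT, which did not pass (adjusted p 0.071), and from 21.2 (15.0 to 31.6) to 11.7 (9.01 to 20.6) in KO, which did. Aurkb, the kinase of the complex, had 10.3 CPM (9.03 to 14.4) and 7.57 (4.57 to 10.5) in WT and 13.0 (10.6 to 19.5) and 7.93 (3.39 to 13.0) in KO, with adjusted p of 0.10 and 0.0098.

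All 6 spindle motors and microtubule proteins fell in both genotypes, with medians of -0.88 and -1.06. Kif11, the motor that pushes the spindle poles apart (chromosome 19, 37376403 to 37421859, plus strand), was at 24.9 CPM at the lowest, 38.3 at the median and 44.8 at the highest in WT M0 and at 12.2, 22.5 and 24.4 in WT M2, with no overlap. In KO it was at 30.6, 42.5 and 71.2 CPM in M0 and at 18.1, 21.2 and 31.2 in M2, where the states just overlapped. The log2 fold changes were -0.88 ± 0.23 and -1.07 ± 0.23. Hmmr, a spindle assembly protein, went from a median of 34.1 CPM (21.3 to 39.6) to 21.4 (12 to 22.9) in WT and from 38.6 (29.2 to 66.0) to 19.5 (16.3 to 32) in KO. Kif15, a motor that can share the work of Kif11, had the largest fall of the 38 in WT, and its standard error was 0.21. Nusap1 fell by 1.01 ± 0.24 in WT and by 1.20 ± 0.24 in KO.

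All 6 genes of the central spindle and cytokinesis fell in both genotypes as well, with medians of -0.84 and -1.02. Prc1 bundles the microtubules of the central spindle (chromosome 7, 80294450 to 80316259, plus strand). It was at 34.9 CPM at the lowest, 54.8 at the median and 62.5 at the highest in WT M0 and at 18, 30.6 and 36.1 in WT M2. KO libraries had 46.6, 65.0 and 93.8 CPM in M0 and 23.9, 31.1 and 42.5 in M2, with separate states. Prc1 fell by 0.87 ± 0.21 in WT and by 1.05 ± 0.21 in KO. Racgap1, a subunit of centralspindlin with Kif23, had separate states in both genotypes, with medians of 44.3 CPM (30.5 to 48.8) and 23.4 (15.4 to 30.0) in WT and 49.9 (34.3 to 74.8) and 22.3 (17.7 to 33.2) in KO.

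The last 3 genes serve the anaphase-promoting complex (APC/C) and mitotic exit, and all 3 fell in both genotypes. In WT all 3 had separate states. Cdca3, which triggers loss of an inhibitor of entry (chromosome 6, 124829547 to 124833701, plus strand), was at 17.1 CPM at the lowest, 20.7 at the median and 27.8 at the highest in WT M0 and at 7.59, 13.3 and 15.3 in WT M2. Its KO values were 18.8, 23.8 and 39.1 CPM in M0 and 9.38, 12.4 and 21.2 in M2. Cdca3 fell by 0.88 ± 0.23 and by 0.91 ± 0.23. Ube2c, the ubiquitin-conjugating enzyme of the complex, went from 18.8 CPM (13.3 to 24.8) to 11.6 (6.47 to 12.7) in WT and from 22.8 (16.4 to 29.9) to 11.2 (8.52 to 17.5) in KO, and its 2 log2 fold changes were nearly equal, -0.89 ± 0.22 and -0.89 ± 0.21. Cdc20, the activator that starts anaphase, had the smallest adjusted p of the 38 in KO, 7.5e-05, at a fold change of -1.16 ± 0.20.

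**Figure D2:**
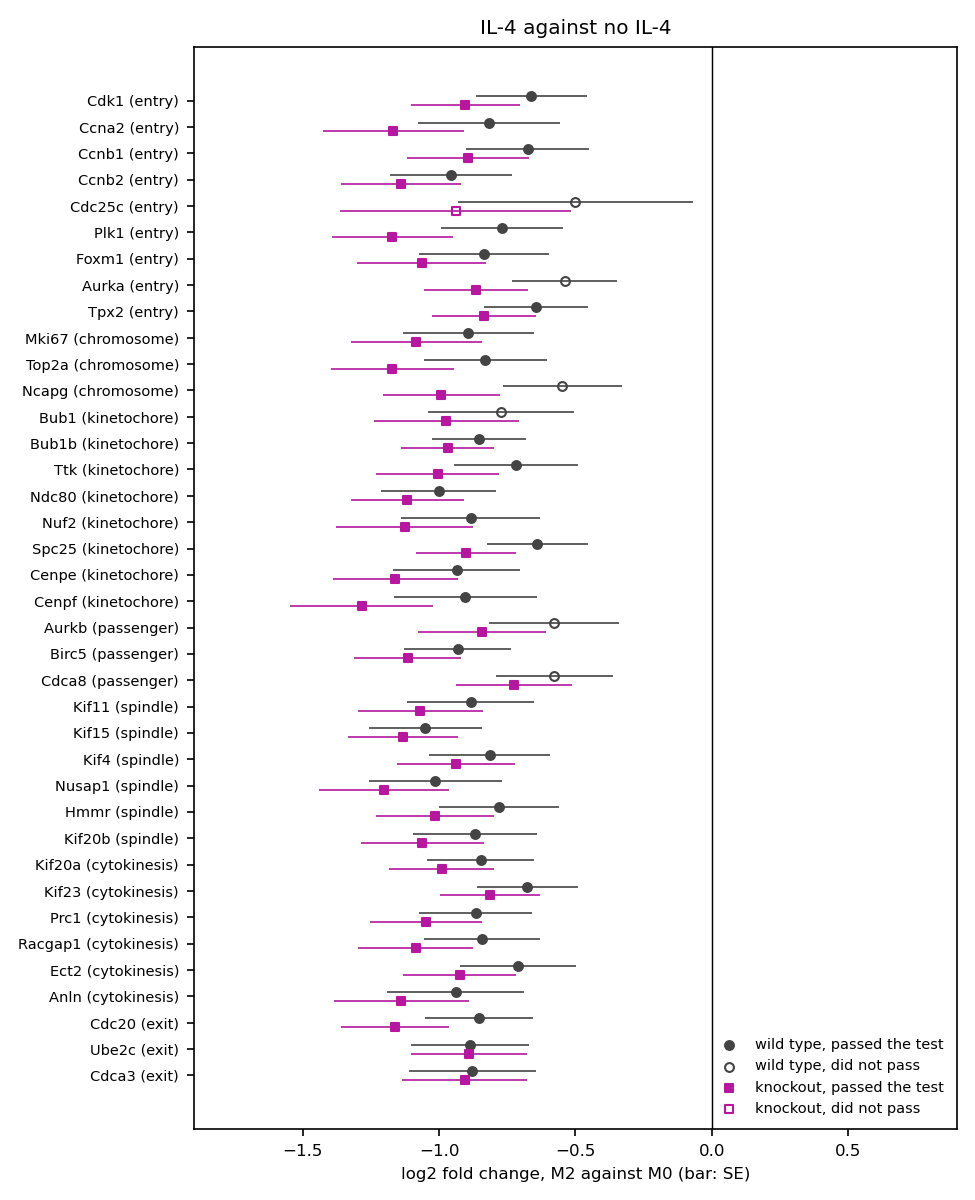
Log2 fold change of M2 against M0 (horizontal axis; bars are SE) for each of the 38 genes, named with its role, in WT (circles) and KO (squares), filled where the adjusted p passed 0.05. All points lie below 0, and the open ones are Aurka, Aurkb, Bub1, Cdca8, Ncapg and Cdc25c in WT and Cdc25c in KO.

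The WT count moved by more than 1.5 times in 3 alternatives: 14 genes fell with no count filter, 14 without the 3 libraries numbered apart in the labels (WT M0 replicate 3, WT M2 replicate 2 and KO M2 replicate 2), and 16 with replicates 1 to 3 alone. Of all genes tested, 1.89%, 8.00% and 2.57% fell in those fits. With replicates 4 to 6 alone 35 members fell, where 6.02% of all genes did. The main fit took M0 and M2 libraries as unpaired, although each M0 library shares a culture number in the labels with an M2 library. With that number as a block, 37 members fell in WT (10.3% of all genes) and 38 in KO (13.4%). Aurka, Aurkb, Bub1, Cdca8 and Ncapg then passed in WT, and only Cdc25c did not. In 6 of 6 same-numbered pairs of each genotype, all 38 members were lower in M2. The log2 fold change stayed below 0 for all 38 genes in both genotypes under every alternative run. Reads were single-end of 40 bases and the sources do not state a strand setting, and 13 members share exon bases with another gene in GENCODE M21 (among them Ccna2 with Exosc9, Prc1 with Rccd1, Ube2c with Tnnc2 and Kif20a with Cdc23), so values of those members may hold reads of the neighbour.

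Whether the fall with IL-4 differed between the genotypes was tested as the difference of the 2 fold changes. No member passed (0 of 38 by edgeR and 0 by DESeq2, 0 at an unadjusted p under 0.05, against 0% of all genes by edgeR). The fold change was lower in KO for all 38 genes, by a median of 0.21 on the log2 scale, with standard errors of 0.24 to 0.60 for the difference of a single gene. For Mki67 the difference was -0.19 with a 95% interval from -0.85 to 0.47, so a fall weaker or stronger in KO was within the error.

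The second comparison was KO against WT in each state. In M0 the median log2 difference of the 38 genes was 0.38, from 0.21 for Birc5 to 0.49 for Ncapg, and all 38 lay above 0. In M2 it was 0.16, from -0.01 for Plk1 to 0.33 for Kif4. The medians of all genes tested were -0.01 and 0.01. In M0, 0 of the 38 passed by edgeR, where 1.1% of all genes were higher in KO and 3.42% lower, 0 passed by DESeq2, and 5 (Ncapg, Bub1b, Spc25, Kif4 and Kif23) had an unadjusted p under 0.05. In M2, 0 passed by either tool, where 1.51% of all genes were higher and 3.09% lower, and 0 had an unadjusted p under 0.05. The share of all genes at that unadjusted threshold was not counted, so counts of genes by unadjusted p have no background here and are not results. The highest values are those of KO M0, yet the 6 KO libraries overlapped the 6 WT libraries for every member in both states. Of all genes, 0.977% in M0 and 1.09% in M2 lay wholly higher in KO, and 2.5% and 2.54% wholly lower.

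Mki67 was 0.39 ± 0.24 higher in KO M0 (95% interval -0.08 to 0.85) and 0.20 ± 0.24 higher in KO M2. Top2a differed by 0.43 ± 0.22 and 0.08 ± 0.23, Ccna2 by 0.49 ± 0.25 and 0.14 ± 0.26, and Kif11 by 0.43 ± 0.22 and 0.24 ± 0.24. For Cenpe the differences were 0.38 ± 0.22 and 0.15 ± 0.24, for Prc1 0.36 ± 0.20 and 0.18 ± 0.21, for Cdca3 0.29 ± 0.22 and 0.26 ± 0.24, and for Birc5 0.21 ± 0.19 and 0.03 ± 0.20. None of these 8 genes, those of highest mean CPM in each role and Top2a, passed the test in either state.

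The 6 libraries of a group were not alike in these genes. Replicates 4 to 6 of every group carry 1 run of library numbers in the labels, and replicates 1 to 3 carry an earlier run, apart from the 3 libraries numbered apart. In KO M0 the summed level was 1845 to 2359 CPM in replicates 1 to 3 and 1121 to 1268 CPM in replicates 4 to 6. In WT M0 it was 869 to 1413 and 1372 to 1461. KO M0 was therefore above WT M0 in replicates 1 to 3, without overlap, and below it in replicates 4 to 6, also without overlap. M2 showed the same order, with KO at 791 to 1135 CPM and WT at 458 to 805 in replicates 1 to 3, which overlapped slightly, and KO at 631 to 653 and WT at 777 to 886 in replicates 4 to 6, which did not.

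**Figure D3:**
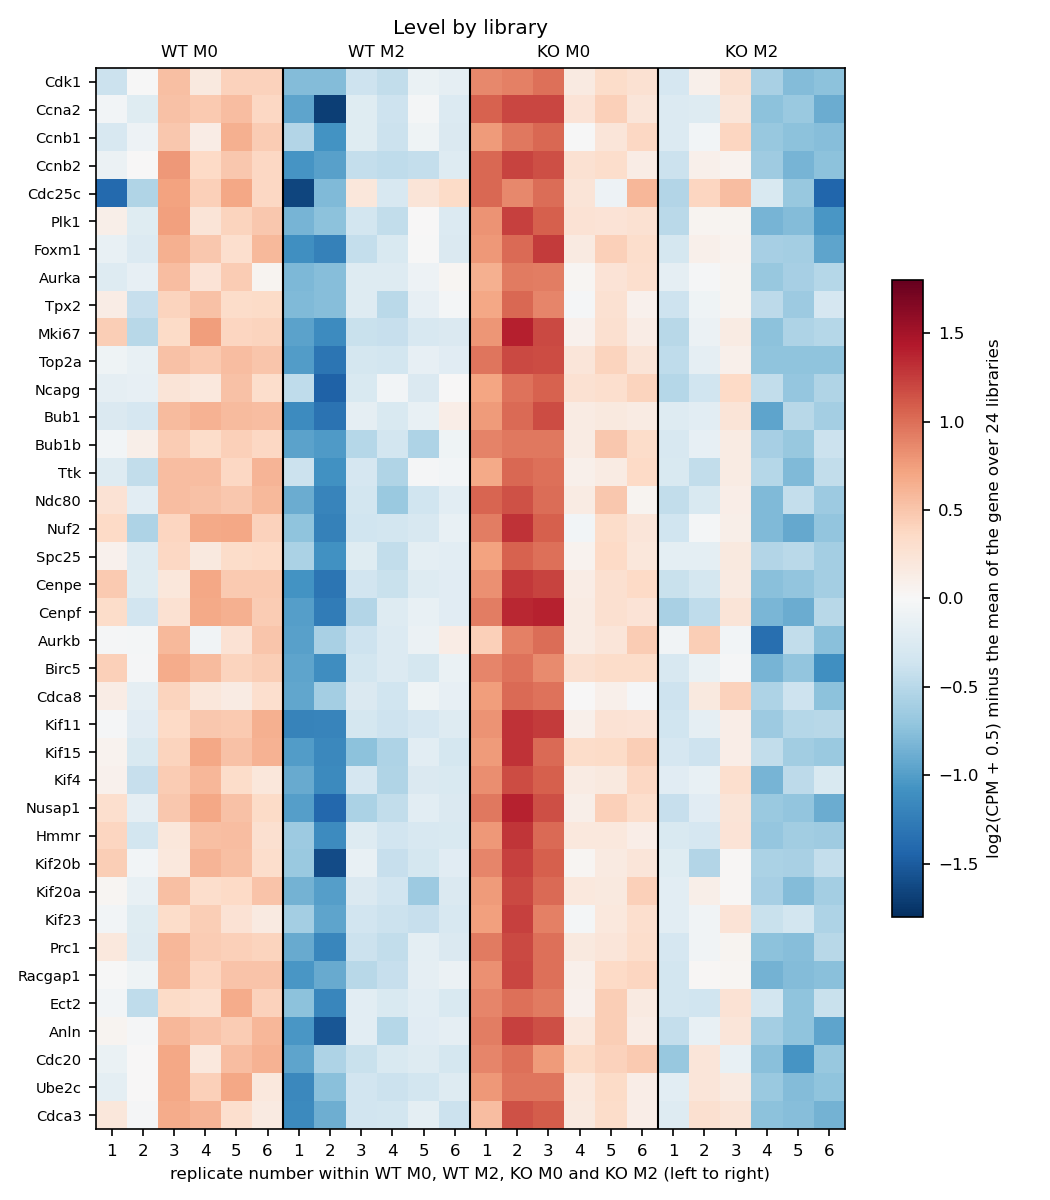
Level of each of the 38 genes (rows) in each of the 24 libraries (columns, replicates 1 to 6 of WT M0, WT M2, KO M0 and KO M2), as log2(CPM + 0.5) minus the gene's mean over the 24 libraries, red above and blue below. In most libraries nearly all rows share a colour, and KO M0 replicates 1 to 3 are the reddest columns.

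A fit with 8 groups (genotype, state and replicates 1 to 3 or 4 to 6), added after these values were seen, gave KO against WT within each set of replicates. In M0, 35 of the 38 were higher in KO in replicates 1 to 3 and 0 lower, where 3.85% of all genes were higher, with a median log2 difference of 0.88. In replicates 4 to 6, 0 passed by edgeR (1 had an unadjusted p under 0.05), where 0.555% of all genes were higher and 2.38% lower, the median was -0.21, and 37 lay below 0. In M2, 16 were higher in KO in replicates 1 to 3, where 1.95% of all genes were, with a median of 0.70. In replicates 4 to 6, 1 was lower, Birc5, where 2.48% of all genes were, with a median of -0.45, and all 38 lay below 0. Counted by libraries that do not overlap, 36 members were higher in KO M0 in replicates 1 to 3 (9.78% of all genes) and 17 were lower in replicates 4 to 6 (13.3%). The same counts in M2 were 18 higher (7.32%) and 29 lower (13.9%).

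That fit also gives the change in the genotype difference between replicates 1 to 3 and 4 to 6. The fit was added because the turnover had been seen in these same genes and libraries, so its calls describe the turnover and are not independent support for it. The change passed for 20 members in M0, where 1.14% of all genes passed in that direction, and for 11 in M2, where 0.438% did. In M0 the change was 1.41 ± 0.26 on the log2 scale for Kif11 (adjusted p 0.015) and 1.52 ± 0.29 for Cenpf (adjusted p 0.017). In M2 it was 1.32 ± 0.24 for Racgap1 (adjusted p 0.015) and 1.34 ± 0.26 for Birc5 (adjusted p 0.021). These genes serve different steps, from pole separation to cytokinesis, and in each the estimated difference lay above 0 in replicates 1 to 3 and below 0 in replicates 4 to 6.

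Single genes show it library by library. Kif11 in M0 had 24.9, 28.4 and 36.9 CPM in WT and 50.7, 69.2 and 71.2 in KO among replicates 1 to 3, in order of size. Among replicates 4 to 6 it had 39.8, 40.5 and 44.8 CPM in WT and 30.6, 34.2 and 34.3 in KO. Neither set has an overlap, and the order of the genotypes turns over. Mki67 in M0 had 118, 213 and 228 CPM in WT and 291, 379 and 440 in KO among replicates 1 to 3, and 218, 220 and 282 in WT and 175, 184 and 203 in KO among replicates 4 to 6. Birc5 in M2 had 6.80, 7.70 and 12.1 CPM in WT and 12.5, 14.1 and 15.1 in KO in replicates 1 to 3, and 12.2, 12.8 and 14.1 in WT and 6.85, 8.35 and 9.19 in KO in replicates 4 to 6.

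**Figure D4:**
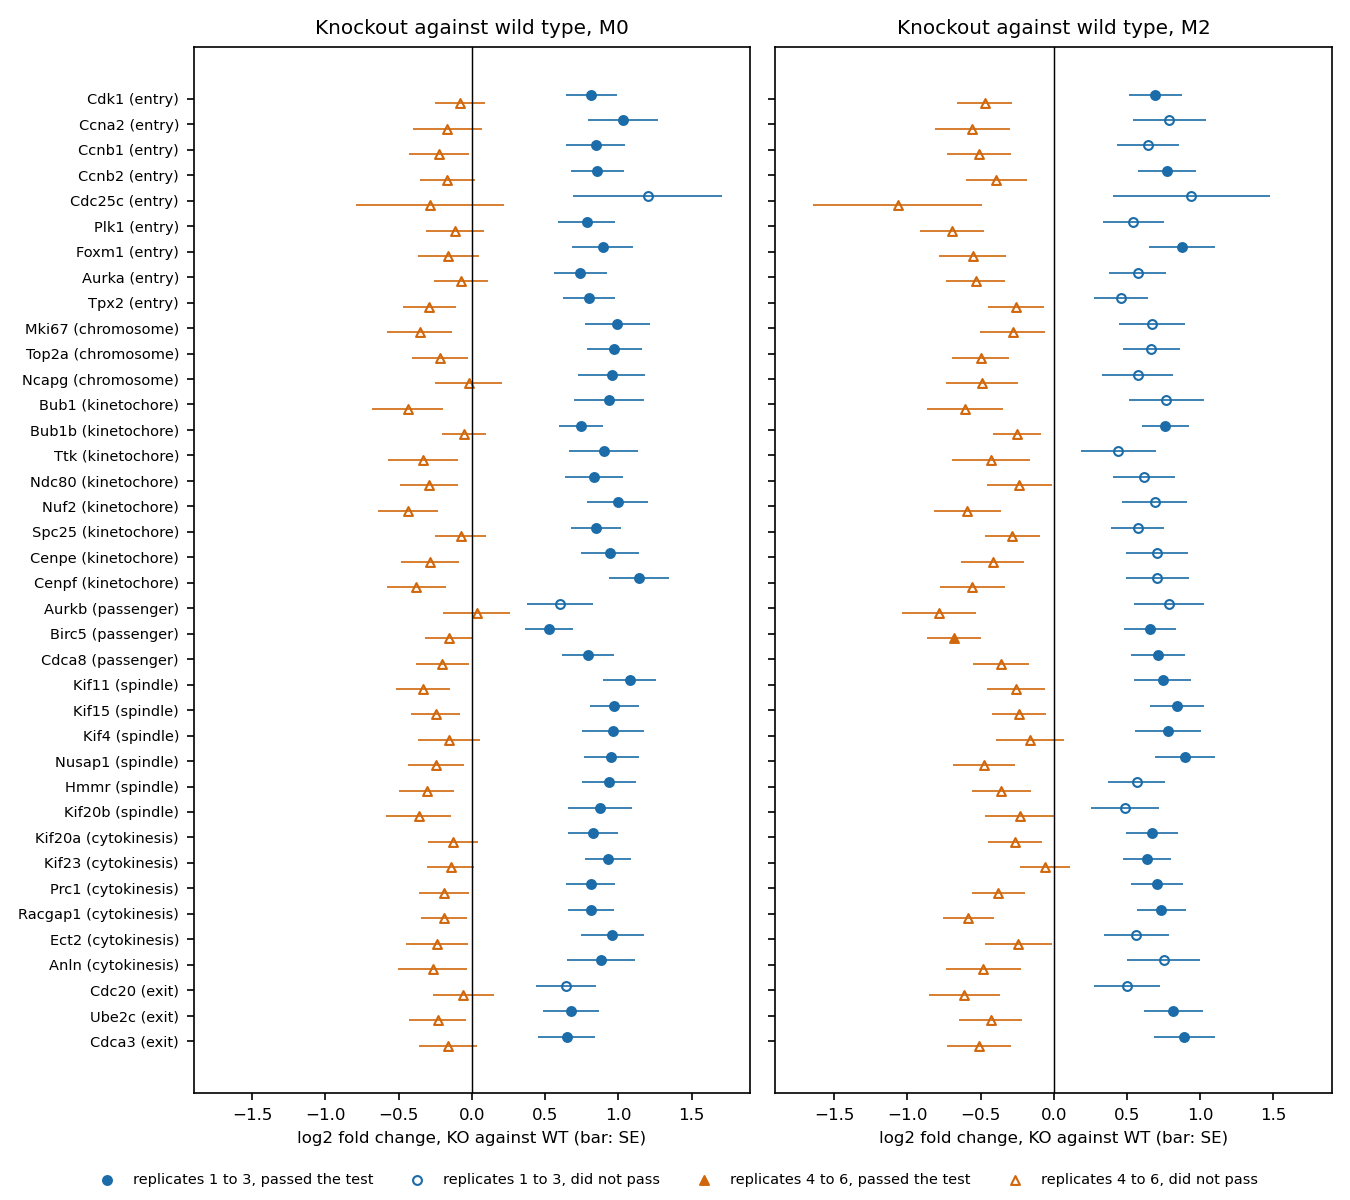
Log2 difference of KO against WT (horizontal axis; bars are SE) for each of the 38 genes in M0 (left) and M2 (right), from the fit of 8 groups, with circles for replicates 1 to 3 and triangles for replicates 4 to 6, filled where the adjusted p passed 0.05. Circles lie to the right of 0 for all 38 genes in both states, and triangles lie to the left for 37 genes in M0 and 38 in M2.

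With each set of replicates fitted alone, 10 members were higher in KO M0 in replicates 1 to 3 (1.16% of all genes) and 9 lower in replicates 4 to 6 (4.09%), and in M2 the counts were 0 higher (0.6%) and 21 lower (4.59%). Some cell type markers moved with these sets. The osteoclast list (Acp5, Ctsk, Atp6v0d2 and others) summed to 1025 to 1120 CPM in KO M0 in replicates 1 to 3 and to 1406 to 1550 in replicates 4 to 6, and to 1908 to 2214 and 2402 to 2742 in KO M2, with no overlap in either state. In WT the sets overlapped, at 1343 to 2049 and 1411 to 1826 CPM in M0 and 2090 to 2738 and 2245 to 2312 in M2. In KO M0 the macrophage list summed to 12708 to 14722 CPM in replicates 1 to 3 and to 15238 to 15399 in replicates 4 to 6, and in WT M0 to 16650 to 19736 and 14537 to 15699. In M2 its sets overlapped, at 11565 to 13792 and 12876 to 13615 CPM in KO and 14147 to 18119 and 14360 to 14764 in WT. The alternative activation list summed to 1196 to 1384 and 956 to 1113 CPM in KO M0 and to 2256 to 2741 and 1748 to 1928 in WT M2. Its sets overlapped in WT M0, at 856 to 948 and 912 to 1042 CPM, and in KO M2, at 2184 to 2787 and 2031 to 2617. The neutrophil list in WT M2 summed to 199.8 to 325 and 126 to 146 CPM. The erythroid and megakaryocyte list summed to 124 to 139 and 119 to 121 CPM in KO M0. In KO M2 it summed to 112 to 147 and 75.9 to 88. The B cell list had 3.26 to 5.29 and 1.897 to 2.85 CPM in KO M0. In WT M2 it had 3.298 to 4.98 and 1.74 to 3.04. The dendritic list in WT M2 had 6.55 to 11.5 and 4.69 to 6.37 CPM. The endothelial list there had 144 to 185 and 128 to 135. In their other groups the sets of these lists overlapped. The T and NK cell list, mostly Cd4, was lower in replicates 1 to 3 in WT M2, KO M0 and KO M2. It was at 12.8 to 13.8 against 26.8 to 32 CPM in WT M2. In KO M0 it was at 22.5 to 27.2 against 29.7 to 32.7, and in KO M2 at 11.6 to 15.6 against 17.3 to 22.5. In WT M0 it was at 17.7 to 33.4 against 34.6 to 44.2 CPM, a gap that TMM scaling would close. The TMM factors of the libraries beside that gap were 0.971 (replicate 1) and 1.01 (replicate 5). The stromal list stayed at 14.0 to 40.5 CPM in KO M0 and 178 to 268 in WT M0 in either set. Granulocyte progenitor markers were lower in replicates 1 to 3 of WT M0, at 7.30 to 7.75 against 10.8 to 11.9 CPM, without overlap. In KO M0 their sets overlapped, at 8.01 to 12.6 and 8.68 to 12.2 CPM, and they overlapped in WT M2 and KO M2 too. Their part in the result was not tested.

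With IL-4 these genes fell in both sets of replicates. In the fit of 8 groups 34 members fell in WT in replicates 1 to 3 (6.49% of all genes) and 24 in replicates 4 to 6 (2.68%), and 37 and 36 fell in KO (9.14% and 6.51%). The medians were -0.93 and -0.73 in WT and -1.09 and -0.97 in KO. The change of the IL-4 response between the sets passed for 0 members in either genotype by edgeR, with 0 at an unadjusted p under 0.05, and DESeq2 was not run on it.

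The 38 genes also moved together among libraries of 1 group. Over the 703 pairs of members, the median correlation of their deviations from the group means across the 24 libraries was 0.86 (0.42 to 0.98), and it was 0.70 once the mean of each set of replicates was taken out too. All gene pairs tested had a median of -0.0006. The members share the libraries and their scaling, so these values only describe the set.

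Genes of the same processes outside the set were read from lists of 105 other mitosis genes. With IL-4, 62 of the 105 fell in WT and 86 in KO, and 0 rose, with medians of -0.62 and -0.87. The shares of all genes tested, for this list and those that follow, were 7.95% lower and 8.49% higher in WT. In KO they were 11.4% lower and 12.2% higher. Of 36 other kinetochore genes, 20 fell in WT, among them Cenph (-1.05 ± 0.21) and Ska1 (-1.34 ± 0.30), and 27 in KO, among them Hjurp (-0.90 ± 0.14) and Cenpk (-1.25 ± 0.22). Of 17 cohesin and condensin genes, 8 and 11 fell, with Ncapg2, a condensin II subunit, at -0.92 ± 0.13 and -1.06 ± 0.13. Of 25 other spindle and centrosome genes, 19 and 24 fell, with Ckap2 at -1.15 ± 0.22 and -1.41 ± 0.22. Of 27 other genes of entry and exit, 15 and 24 fell, with Iqgap3 at -0.88 ± 0.18 and -1.07 ± 0.18. For KO against WT, 0 of the 105 passed by edgeR in either state. At an unadjusted p under 0.05 there were 17 in M0 (16 higher and 1 lower in KO) and 1 in M2, which was higher. The turnover between sets of replicates was seen in these genes too. In the fit of 8 groups, 58 of the 105 were higher in KO M0 in replicates 1 to 3 (median 0.67) and 0 passed in replicates 4 to 6 (median -0.15), and in M2 16 were higher (median 0.51) and then 0 passed (median -0.30).

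DNA replication genes, which act in S phase, moved the same way with smaller medians. Of 48, 28 fell and 2 rose in WT (median -0.49), and 39 fell and 1 rose in KO (median -0.64). Lig1, the ligase that joins new strands, changed by -0.87 ± 0.16 and -0.97 ± 0.16, Pole, a replicative polymerase, by -0.91 ± 0.18 and -1.14 ± 0.18, and the helicase subunit Mcm3 by -0.48 ± 0.11 and -0.67 ± 0.11. Dut, which removes dUTP, rose in both, by 0.74 ± 0.18 and 1.08 ± 0.18, and was also higher in KO M2 than in WT M2 (0.59 ± 0.17, adjusted p 0.044). Rfc5 rose in WT (0.31 ± 0.08). Between the sets of replicates, 26 of the 48 were higher in KO M0 in replicates 1 to 3 (median 0.61) and 0 passed in replicates 4 to 6 (median -0.08). In M2, 7 were higher in replicates 1 to 3 (median 0.43), and in replicates 4 to 6, 0 were higher and 1 was lower (median -0.24).

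The core subunits of APC/C, most of which are present throughout the cell cycle, hardly moved: 1 of 14 fell in WT (Anapc15, -0.39 ± 0.06) and 2 in KO (Anapc15, -0.31 ± 0.06, and Anapc5, -0.31 ± 0.08), and the medians were -0.002 and -0.004. Of 12 genes of the DREAM and MuvB complexes, which bind the CHR, 2 fell in WT and 6 in KO. Mybl2, the MYB protein that switches MuvB to an activator, fell by 0.81 ± 0.24 and by 1.19 ± 0.24, and Tfdp2 fell by 0.46 ± 0.10 and by 0.74 ± 0.10.

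Regulators of G1 decide whether a cell starts a cycle. Of 14 tested, 4 fell and 1 rose in WT, where 7.95% of all genes fell and 8.49% rose. In KO 6 fell and 1 rose, where 11.4% of all genes fell and 12.2% rose. The 1 gene that rose is near the share of all genes in each genotype. Ccnd3, cyclin D3, fell by 0.69 ± 0.17 and by 0.95 ± 0.17, and Cdkn1a, the inhibitor p21, rose by 0.25 ± 0.07 and by 0.31 ± 0.07. Cdkn1c, the inhibitor p57, was higher in KO than in WT by 1.37 ± 0.12 in M0 (adjusted p 4.2e-09) and by 1.46 ± 0.12 in M2 (adjusted p 2.0e-09). Ccnd1, cyclin D1, was higher in KO M0 by 0.76 ± 0.19 (adjusted p 0.021).

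Because the members moved together, their promoters were searched for the motifs known from mitotic genes. RefSeq windows (GRCm38.p6) of 250 bases before and 50 after each gene's start covered 32 of the 38 members, and Ccna2, Cdc25c, Foxm1, Tpx2, Aurkb and Kif20a had no entry in the table. The CHR was searched as TTTGAA or TTCGAA, the NF-Y box as CCAAT and the E2F site as TTTGGCGC or TTTCCCGC, on both strands, and TTCGAA reads the same on both. A CHR word was found for 27 of the 32 members (84.4%), against 16.8% of 9355 tested genes with a window and 19.2% of all 32851 windows. CCAAT was found for 25 (78.1%), against 43.3% and 37.4%, and both for 23 (71.9%), against 7.2% and 7.52%. An E2F word was found for 2 members (6.25%), against 3.51% and 1.56%. A match is a word in this window and not a measured site.

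The stretches below are shown because they hold the CHR and CCAAT words that most members share. They belong to the 6 members of highest mean GETMM, among those considered, that have both words in the 150 bases upstream of both the RefSeq and the GENCODE M21 start, and capitals mark CHR and CCAAT words on either strand (GRCm38.p6, strand of the gene, 5′ to 3′).
Cdk1 (chr10:69352939-69353088, minus strand): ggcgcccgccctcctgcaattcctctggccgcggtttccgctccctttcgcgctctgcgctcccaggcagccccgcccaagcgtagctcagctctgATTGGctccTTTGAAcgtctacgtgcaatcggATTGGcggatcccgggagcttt
Top2a (chr11:99024190-99024339, minus strand): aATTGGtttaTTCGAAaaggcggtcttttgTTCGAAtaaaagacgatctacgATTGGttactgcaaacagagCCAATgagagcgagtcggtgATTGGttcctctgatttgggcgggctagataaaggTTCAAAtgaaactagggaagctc
Mki67 (chr7:135716380-135716529, minus strand): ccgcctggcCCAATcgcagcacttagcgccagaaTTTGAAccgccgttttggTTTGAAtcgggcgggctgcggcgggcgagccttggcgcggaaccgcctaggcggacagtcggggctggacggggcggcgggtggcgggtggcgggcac
Cdc20 (chr4:118437353-118437502, minus strand): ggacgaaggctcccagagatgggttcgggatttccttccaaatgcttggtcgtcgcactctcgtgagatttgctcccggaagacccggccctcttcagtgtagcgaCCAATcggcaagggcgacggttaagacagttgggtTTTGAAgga
Kif11 (chr19:37376232-37376381, plus strand): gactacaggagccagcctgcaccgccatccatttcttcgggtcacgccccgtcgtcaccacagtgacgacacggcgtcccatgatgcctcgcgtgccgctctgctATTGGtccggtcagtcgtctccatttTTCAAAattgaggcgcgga
Ect2 (chr3:27153879-27154028, minus strand): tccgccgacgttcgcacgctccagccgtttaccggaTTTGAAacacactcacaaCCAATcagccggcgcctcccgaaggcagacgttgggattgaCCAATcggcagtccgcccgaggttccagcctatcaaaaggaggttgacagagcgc

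In Top2a the words repeat, with 3 CHR words and 4 CCAAT words in the stretch. Within the printed stretches, counted from the RefSeq start, the CHR word begins at base -71 in Cdk1, -18 in Cdc20, -19 in Kif11 and -114 in Ect2, and at -116 and -98 in Mki67. A CCAAT word of the stretch begins at -80 and -48 in Cdk1, -53 in Cdc20, -45 in Kif11, -96 and -55 in Ect2, and -141 in Mki67. The windows of these genes hold further words outside the stretches. Among them are CHR words at -15 in Cdk1 and 40 in Ect2, and CCAAT words at -208 in Cdk1, -8 in Cdc20, 2 in Ect2, and -188 and -166 in Mki67. Over the windows of all 32 members there were 60 CCAAT words, with a median first base at -67.5 (-228 to 19), and 38 CHR words, with a median at 3 (-234 to 41). The 3 members with neither word, Nuf2, Birc5 and Nusap1, had log2 fold changes with IL-4 of -0.88, -0.93 and -1.01 in WT, within the range of the other members.

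**Figure D5:**
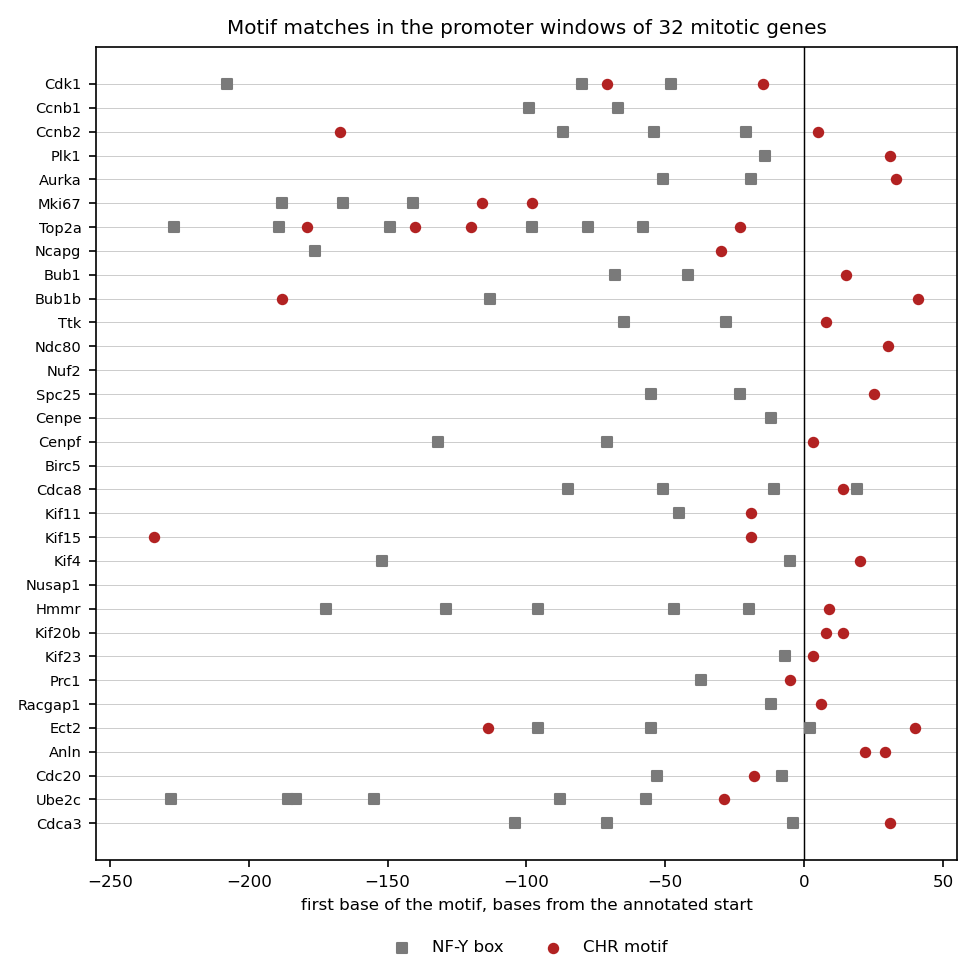
Position of CCAAT words (NF-Y box, squares) and CHR words (circles) in the RefSeq promoter windows of the 32 mitotic genes with an entry (rows), in bases from the annotated start (horizontal axis, 0 at the start), using the most upstream start of a gene. Squares lie mostly before the start (median -67.5), circles cluster around it (median 3), and the rows of Nuf2, Birc5 and Nusap1 are empty.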

How the data were processed

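Gene-level RNA was measured in 24 libraries, 6 in each of WT M0, WT M2, KO M0 and KO M2. The authors deposited expected counts rounded to whole numbers and a GETMM signal corrected for gene length and library. Per the submitters' processing notes, CASAVA 2.8.0, RSEM 1.3.0, Bowtie2 2.3.4.1 and edgeR were used with genome build mm10; parameters are not given in the sources used here. Expected counts were fitted in 4 groups with edgeR 4.0.16 (TMM scaling, robust quasi-likelihood test, R 4.3.3). Genes were kept at a minimum count of 10 by edgeR's filter, p-values were adjusted by Benjamini-Hochberg over all 12797 genes tested, and the threshold was 0.05. The SE of a log2 fold change was its size divided by the root of F. The script was tested on simulated data. Depth was 7893810 to 13492500 counts per library, which bounds the precision of genes with few counts.

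The members and lists were chosen with earlier results of these data known. Values are given for the 2 members of highest CPM in each role, for members whose call differs from most, and for up to 4 genes per list and direction of smallest p. Alternatives were another scaling in edgeR (RLE size factors, total counts), DESeq2 1.42.0, no filter, and a filter of 1 CPM in 6 libraries. Further ones were limma 3.58.1 on log2(GETMM + 1) and log2(GETMM + 0.1), subsets of libraries, terms for library set, replicate number and culture number, and each library left out. A fit of 8 groups was added after the data were seen. Promoter windows came from RefSeq (GRCm38.p6), and members on chromosome 18 were not considered for printing.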

Additional observations from a re-analysis of the deposited data

Results flagged for a closer look

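Of 152 sets of 6 libraries (38 genes in 4 groups), 4 held 1 library far from the other 5, where chance gives about 1 in 20. In KO M2, replicate 3 had 18.9 CPM of Ncapg with the nearest library at 11.4, 25.1 CPM of Cenpf with the nearest at 15.3, and 20.2 CPM of Ect2 with the nearest at 13.3. In WT M0, replicate 2 had 10.5 CPM of Nuf2 with the nearest at 20.2. The difference of KO from WT changed between replicates 1 to 3 and replicates 4 to 6 for 20 members in M0 and for 11 in M2, by the test of that change in the fit of 8 groups, which was added after the turnover had been seen in these genes and so describes it.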

How the results depend on the processing

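The fall with IL-4 in KO was called for 37 members on leaving out any 1 library, where 9.67% to 12.1% of all genes fell. In WT it was called for 24 to 34 members, where 6.36% to 8.45% of all genes fell. The genotype comparisons gave 0 to 0 members, where at most 3.69% of all genes were called in either direction. The difference of the responses gave 0 to 0 members, and 0% of all genes. In WT the count was 14 with no count filter (1.89% of all genes), 14 without the 3 libraries numbered apart (8.00%) and 16 with replicates 1 to 3 only (2.57%). The cause was not tested. KO M0 had 10 members higher with replicates 1 to 3 only (1.16% of all genes) and 9 lower with replicates 4 to 6 only (4.09%). When 8 groups were averaged, 1 of the 38 was higher in KO M0, near the share of all genes (2%). KO M2 had 21 lower with replicates 4 to 6 only (4.59%). With replicates 4 to 6 only, KO against WT turned negative in M0 for Birc5 (-0.15), Ccna2 (-0.16), Cdca3 (-0.15), Cenpe (-0.28), Kif11 (-0.33), Mki67 (-0.35), Prc1 (-0.18) and Top2a (-0.21), and in M2 for Birc5 (-0.68), Ccna2 (-0.56), Cdca3 (-0.51), Cenpe (-0.42), Kif11 (-0.26), Mki67 (-0.28), Prc1 (-0.38) and Top2a (-0.50). Without the 3 libraries numbered apart it was negative in M2 for Birc5 (-0.16), Ccna2 (-0.053) and Top2a (-0.092). Birc5 in M2 was also negative with total counts (-0.039), limma on Birc5 with 1 added (-0.00123) or 0.1 added (-0.00165) and 8 groups averaged (-0.013). On leaving out 1 library, KO against WT in M2 ran from -0.088 to 0.132 for Birc5, from -0.030 to 0.247 for Ccna2, from -0.0056 to 0.233 for Cenpe and from -0.044 to 0.168 for Top2a. Total counts moved the median of all genes in KO with IL-4 to -0.13 and the split of calls from 1563 higher and 1461 lower to 899 and 2809, and in WT from 1086 and 1017 to 899 and 1119; 37 and 33 members fell. With the replicate block by replicate number, 32 members fell in WT (8.55% of all genes) and 37 in KO (12.2%). With the block by culture number 37 fell in WT (all but Cdc25c, 10.3% of all genes) and 38 in KO (13.4%), with Cdc25c at -1.03 ± 0.23 (adjusted p 0.0029 by edgeR). For genotype (by replicate number) 0 members passed, where at most 3.77% of all genes did in either direction. For the difference of the responses 0 passed with either block. Same-numbered M0 and M2 libraries had correlated deviations of -0.009 to 0.39 in WT and -0.05 to 0.31 in KO, over 0.1 in 4 of 6 pairs of each. Pairs holding a library numbered apart had -0.009 (WT replicate 3), 0.17 (WT replicate 2) and -0.04 (KO replicate 2). The labels do not say what the culture numbers mark, and the main fit took the libraries as unpaired. Between same-numbered libraries all 38 members were lower in M2 in 6 of 6 pairs of each genotype. The ratios of their summed CPM were 0.479 to 0.645 in WT and 0.401 to 0.563 in KO. With 8 groups averaged, Cdc25c passed in KO (-1.03 ± 0.38, adjusted p 0.048). Few counts limit Cdc25c most, at 4 to 56 per library.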
